A study of Mus musculus with 15 samples.

Results

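The interferon regulatory factor family of the mouse was read in bulk RNA sequencing of macrophages grown from bone marrow. Its members were chosen by name: the gene identifiers of the count table were matched to symbols, and the genes Irf1, Irf2, Irf3, Irf4, Irf5, Irf7, Irf8 and Irf9 were kept, which gave 8 genes of 25700. These 8 all passed the filter on low counts.

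Marrow cells came from the leg bones of mice aged 8 to 10 weeks and were cultured for 7 days with the growth factor M-CSF at 10 ng/ml, which all 5 groups received. One group stayed untreated (control). A pair of groups was given hemin bound to human serum albumin (heme-albumin) at 200 µM or at 400 µM, to make cells like macrophages that have taken up red cells. The remaining groups received IL-4 at 10 ng/ml (termed M2) or IFN-γ at 10 ng/ml (termed M1), and each group had 3 libraries. The sources used here do not give the strain, sex or genotype of the mice, nor how long the treatments lasted. A tag of the higher dose reads 401 µM for replicate 2 and 402 µM for replicate 3, against 400 µM in their titles and in the protocol, and 400 µM is used below. No label says that the replicates are separate animals. The p-values therefore speak of the spread among these libraries, which may be technical.

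Interferon regulatory factors are transcription factors that bind DNA through a conserved tryptophan-rich domain and recognise repeats of the letters GAAA. IFN-γ signals through its receptor, JAK1 and JAK2 and induces IRF1 through gamma-activated sites. Type I interferon signals to the complex ISGF3, which holds STAT2 and IRF9, and whose targets include Irf7 and many antiviral genes. IL-4 signals through STAT6, and IRF4 is known as a factor of alternatively activated macrophages, while IRF8 is needed for macrophage and dendritic cell development.

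Library totals ran from 8427352 to 28587416 counts. Levels are given in CPM, the count of a gene scaled to a common library size, with library totals corrected by TMM factors of 0.886 to 1.12, and comparisons between genes use CPM per kilobase of exon. Between replicates, chi-square divided by its degrees of freedom ran from 7.12 to 135, so no library was a copy of another. IFN-γ replicate 3 stood farthest from its group (130 and 135, against 44.7 between the other two), followed by heme-albumin 400 µM replicate 2 (49.0 and 62.4, against 10.8). All 8 macrophage marker genes were present in every group, and of the 9 genes read as a check of the labels all but Tfrc were highest in their own groups. Hmox1, Slc40a1 and Tfrc summed to 25040 to 31526 CPM with heme-albumin against 898 to 1578 CPM in controls, nearly all of it Hmox1 and Slc40a1. Tfrc, the transferrin receptor gene, had means of 20.7 and 21.7 CPM at 200 and 400 µM, below 219.6 CPM in controls, and was highest with IL-4 at 3655 CPM. Arg1, Chil3 and Retnla summed to 8181 to 14266 CPM with IL-4, and Nos2, Cxcl9 and Gbp2 to 3122 to 6329 CPM with IFN-γ. In bulk samples, fewer cells of a type and less RNA per cell cannot be told apart.

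The promoters of 3 members held a gamma-activated site or an interferon factor repeat, and the stretches around all matches found are printed. These members rose with IFN-γ, as did Irf5, Irf7 and Irf9, whose windows held no match. The 250 bases before each annotated start were searched in RefSeq's windows (GRCm38.p6), of which 11 belong to the 8 Irf genes. Searched were the gamma-activated site TTCNNNGAA, which reads the same on both strands, the longer spacing TTCNNNNGAA bound by STAT6, and the repeat GAAANNGAAA with its other strand TTTCNNTTTC. Matches are in capitals and the rest in lower case, 5′ to 3′ on the plus strand. The Irf1 stretch lies at chr11:53769894-53769962, that of Irf2 at chr8:46739495-46739559 and that of Irf8 at chr8:120736157-120736243.
Irf1: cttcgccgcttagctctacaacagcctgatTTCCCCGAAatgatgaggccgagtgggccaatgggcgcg
Irf2: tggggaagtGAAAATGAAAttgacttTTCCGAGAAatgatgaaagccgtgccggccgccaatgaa
Irf8: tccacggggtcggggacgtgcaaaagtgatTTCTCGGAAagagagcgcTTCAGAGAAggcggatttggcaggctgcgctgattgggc

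Counted from the annotated start, the site of Irf1 covered 90 to 82 bases before it. Irf2 had the repeat at 241 to 232 bases and a gamma-activated site at 224 to 216 bases before its start. Irf8 had a pair of gamma-activated sites, at 171 to 163 and at 153 to 145 bases before its start. Of 32851 promoter windows of this length, 7.02% held TTCNNNGAA, 5.85% held TTCNNNNGAA and 2.98% held the repeat. A match describes letters only, and binding was not measured. The windows of Irf3, Irf4, Irf5, Irf7 and Irf9 held none of these letters, which says nothing of the factors that act there. For Irf9 the annotated starts used, 55603985 and 55604579 on chr14, lie inside the gene as placed below, which begins at 55603571. The bases before 55603571 were not searched.

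By level per kilobase of exon, Irf5 was the largest single share of the summed Irf level in macrophages without treatment. Exon length here joins all annotated exons of a gene (2905 bases for Irf5 and 7055 for Irf8). The lengths of the transcripts expressed were not known, and the shares depend on them. In CPM, without exon length, the control means were 147 for Irf5 and 123 for Irf8. Per kilobase of exon, Irf5 made up 38.2% ± 0.391 (SD, n = 3) of the summed Irf level in controls, followed by Irf8 at 13.2% ± 0.856, Irf7 at 13.1% ± 2.99, Irf9 at 10.3% ± 0.695 and Irf1 at 9.55% ± 0.802. Irf4 was the lowest of the tested members, at 0.453% ± 0.112. The make-up differed between treatments. With heme-albumin the share of Irf5 was 54.8% ± 1.96 at 200 µM and 53.3% ± 3.26 at 400 µM, and that of Irf7 was 2.34% ± 0.355 and 3.37% ± 0.932. IL-4 gave a share of 9.40% ± 1.79 to Irf4 and left 1.22% ± 0.253 for Irf7. With IFN-γ, Irf1 took the first place at 43.9% ± 5.33 and Irf7 the second at 22.4% ± 7.45, while Irf5 made up 14.7% ± 0.667.

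**Figure D1:**
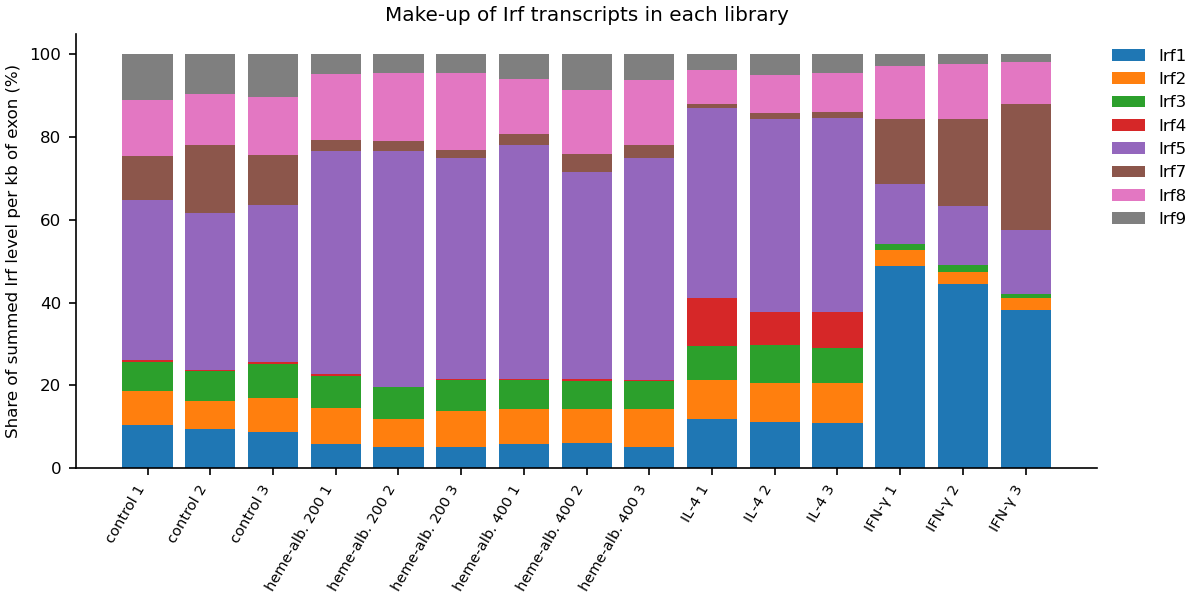
Stacked bars give the share of each tested Irf gene in the summed Irf level per kilobase of exon (y axis, percent) in each of the 15 libraries (x axis). Irf5 is the largest share in controls (mean 38.2%), heme-albumin and IL-4 libraries, and Irf1 in IFN-γ libraries (mean 43.9%).

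The summed Irf level per kilobase was 133 ± 17.9 CPM in controls, 135 ± 8.46 at 200 µM and 113 ± 7.75 at 400 µM of heme-albumin, 130 ± 2.18 with IL-4 and 796 ± 221 with IFN-γ (SD, n = 3). The IFN-γ libraries ran from 573 to 1014 and did not overlap with the controls at 119 to 153. The libraries of the other 3 treatments overlapped with the controls.

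Members that passed the test against control were counted in each treatment (edgeR's quasi-likelihood test, 1 fit over all 15 libraries, Benjamini-Hochberg adjusted over 11883 genes, threshold 0.05). The 4 comparisons with control share the same 3 control libraries. IFN-γ changed 7 of the 8 tested members, of which 6 rose and 1 fell, where 43.7% of all genes were called (24.1% higher and 19.5% lower). The IFN-γ count was 5 to 7 when 1 of the libraries compared was left out, and 6 with DESeq2. The calls of Irf9 (lost in 13 of 16 alternatives) and Irf4 (lost in 3) were not stable. IL-4 changed 4, of which 1 rose and 3 fell, where 26.8% of all genes were called (14.9% higher and 12.0% lower). Heme-albumin at 200 µM changed 5, of which 2 rose and 3 fell, where 23.4% were called (14.0% higher and 9.48% lower). That count was 3 to 4 when 1 of the libraries compared was left out, since the calls of Irf5 and Irf8 were not stable. At 400 µM it changed 3, all of which fell, where 25.4% were called (14.7% higher and 10.8% lower). With 8 members, these counts are a description of the members and not a test of the family.

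**Figure D2:**
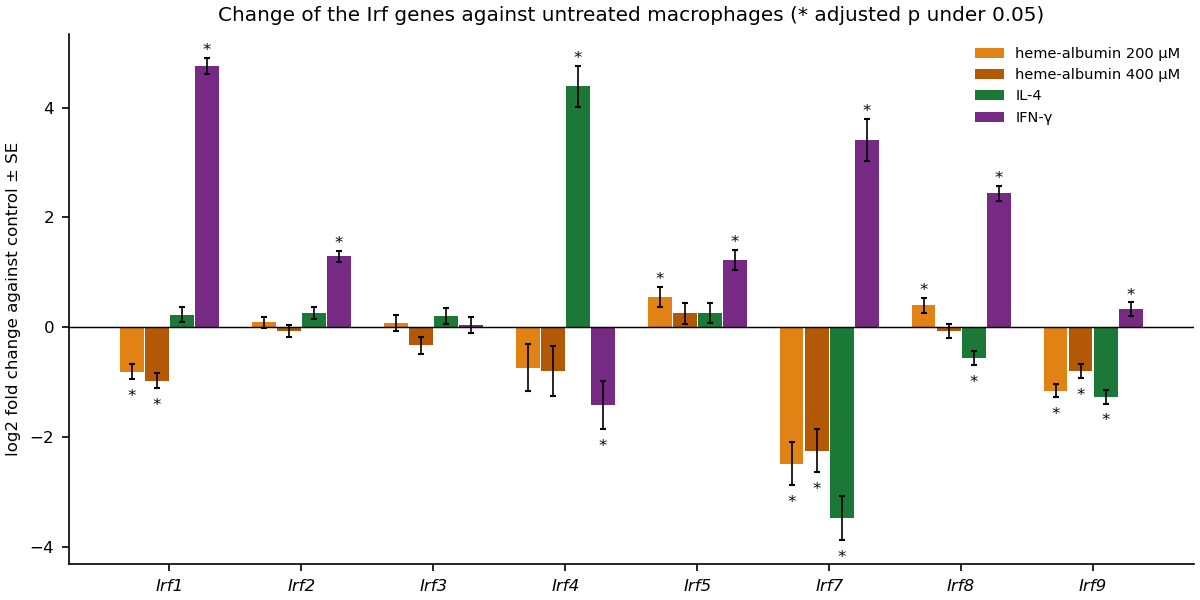
Bars give the log2 fold change of each tested Irf gene against the control libraries with its standard error (y axis) in the 4 treatments, and a star marks an adjusted p under 0.05. Irf1 (4.76), Irf7 (3.41) and Irf8 (2.44) have the tallest IFN-γ bars, Irf4 (4.39) the tallest IL-4 bar, and Irf7 falls in the other 3 treatments.

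Irf1 (ENSMUSG00000018899, chr11:53770014-53778374 in GRCm38) encodes an activator that IFN-γ induces early, and that in turn drives antigen presentation and antimicrobial genes. Its level in controls was 49.3, 57.1 and 44.2 CPM in replicates 1, 2 and 3, and with IFN-γ 1114, 1416 and 1545 CPM. Heme-albumin gave 30.1, 29.3 and 26.6 CPM at 200 µM and 28.2, 25.2 and 23.4 CPM at 400 µM. IL-4 gave 61.5, 59.1 and 56.4 CPM. The IFN-γ libraries were far above all others, both heme-albumin groups lay below every control, and IL-4 overlapped with the controls.

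With IFN-γ, Irf1 rose by 4.76 ± 0.15 on the log2 scale (SE; 27.0-fold; adjusted p = 2.67e-10). The differences within the 3 dates on log2(CPM + 1) were 4.47, 4.61 and 5.10, and without both libraries that stood apart the change was 4.65. It fell by 0.81 ± 0.13 at 200 µM of heme-albumin (1.75-fold lower; adjusted p = 7.18e-04) and by 0.97 ± 0.13 at 400 µM (1.97-fold lower; adjusted p = 1.66e-04), lower on every date at both doses. Without both libraries that stood apart the value at 400 µM was -0.96. The doses did not differ by the test (adjusted p = 0.544). The change with IL-4 was 0.23 ± 0.13 (adjusted p = 0.217). From high to low the order was IFN-γ, IL-4, control, 200 µM and 400 µM, in which IL-4 and control, and the 2 doses, were not told apart.

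Irf2 (ENSMUSG00000031627, chr8:46739732-46847458) encodes a factor that binds the same elements as IRF1 and is known to limit its action. Its level was 73.3, 77.9 and 74.9 CPM in controls and 165, 176 and 211 CPM with IFN-γ. Heme-albumin gave 85.0, 73.9 and 81.7 CPM at 200 µM and 74.7, 62.8 and 77.4 CPM at 400 µM, and IL-4 gave 88.9, 91.3 and 90.0 CPM. The IFN-γ libraries were above all others, the heme-albumin libraries overlapped with the controls, and the IL-4 libraries lay just above them.

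With IFN-γ, Irf2 rose by 1.29 ± 0.11 (2.44-fold; adjusted p = 7.62e-07), by 1.16, 1.17 and 1.48 within the dates, and by 1.18 without both libraries that stood apart. With IL-4 the change was 0.26 ± 0.10 (adjusted p = 0.0896), higher on all 3 dates. The changes with heme-albumin were 0.09 ± 0.11 and -0.07 ± 0.11, with adjusted p = 0.572 and 0.655. Only the IFN-γ group stood apart from its neighbour in the order of the levels, which was IFN-γ, IL-4, 200 µM, control and 400 µM.

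The ratio of Irf1 to Irf2 counts within a library needs no scaling between libraries. It was 0.673, 0.732 and 0.590 in controls, 0.354, 0.397 and 0.326 at 200 µM of heme-albumin, and 0.377, 0.401 and 0.303 at the higher dose. IL-4 gave ratios of 0.692, 0.647 and 0.626, and IFN-γ of 6.75, 8.03 and 7.31. Both heme-albumin groups lay below every control, IFN-γ above, and IL-4 within their range. The log2 ratio differed from control by -0.89 at each heme-albumin dose and by 3.47 with IFN-γ, each with p = 0.1 in a two-sided exact permutation test, the smallest that 3 against 3 libraries allow. With IL-4 the difference was -0.02 (exact p = 1).

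**Figure D3:**
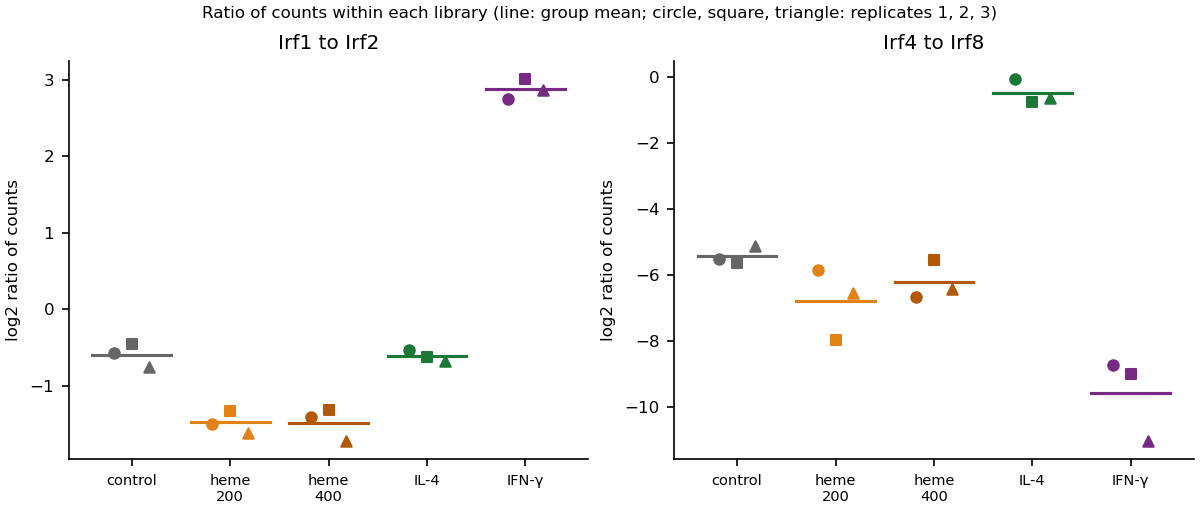
Points give the log2 ratio of Irf1 to Irf2 counts and of Irf4 to Irf8 counts (y axes) in each library by group (x axes), and lines the group means. Irf1 to Irf2 is highest with IFN-γ (mean 2.88) and lowest with heme-albumin (means -1.48 at both doses), and Irf4 to Irf8 is highest with IL-4 (mean -0.48) and lowest with IFN-γ (mean -9.59).

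Irf9 (ENSMUSG00000002325, chr14:55603571-55610030) encodes the DNA-binding subunit of ISGF3. Its level was 70.2, 78.8 and 70.4 CPM in controls. Heme-albumin gave 32.7, 34.4 and 31.5 CPM at 200 µM and 38.7, 48.8 and 38.4 CPM at 400 µM, IL-4 gave 25.6, 35.0 and 30.7 CPM, and IFN-γ gave 83.3, 97.0 and 95.4 CPM. Every library of both heme-albumin groups and of IL-4 lay below every control, and every IFN-γ library above.

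Irf9 fell by 1.27 ± 0.13 with IL-4 (2.40-fold lower; adjusted p = 8.21e-06), by 1.15 ± 0.13 at 200 µM of heme-albumin (2.23-fold lower; adjusted p = 2.72e-05) and by 0.80 ± 0.13 at 400 µM (1.75-fold lower; adjusted p = 4.42e-04). On log2(CPM + 1) the differences within the dates were -1.42, -1.15 and -1.17 with IL-4. They were -1.08, -1.17 and -1.14 at 200 µM of heme-albumin, and -0.84, -0.68 and -0.86 at the higher dose. Without both libraries that stood apart the value at 400 µM was -0.92. With IFN-γ Irf9 rose by 0.33 ± 0.12 (1.26-fold; adjusted p = 0.0436). That call was lost in 13 of 16 alternatives, among them DESeq2 (adjusted p = 0.0527) and leaving out both libraries that stood apart (0.30, adjusted p = 0.0531). The order was IFN-γ, control, 400 µM, 200 µM and IL-4, and the last 3 were not told apart between neighbours. Irf9 shares 123 bases of exon on the same strand with Rnf31, so reads there are uncertain between both genes.

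Irf7 (ENSMUSG00000025498, chr7:141262706-141266481, minus strand) encodes the factor that amplifies type I interferon production and is itself a target of ISGF3. Controls held 48.7, 95.2 and 57.0 CPM, and IFN-γ libraries 342, 636 and 1168 CPM. The libraries at 200 µM of heme-albumin held 13.5, 12.3 and 9.87 CPM, those at 400 µM 11.9, 17.4 and 13.1 CPM, and those with IL-4 4.53, 6.89 and 6.57 CPM. No treated group overlapped with the controls: IFN-γ was higher, and the other 3 treatments were lower.

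Irf7 fell by 3.47 ± 0.40 with IL-4 (11.1-fold lower; adjusted p = 3.14e-05), by 2.49 ± 0.39 at 200 µM (5.60-fold lower; adjusted p = 5.17e-04) and by 2.25 ± 0.39 at 400 µM (4.75-fold lower; adjusted p = 9.32e-04). Its differences within the dates were -3.17, -3.61 and -2.94 with IL-4, -1.77, -2.85 and -2.42 at 200 µM, and -1.94, -2.39 and -2.04 at the higher dose, where the change was -2.41 without both libraries that stood apart. With IFN-γ it rose by 3.41 ± 0.39 (10.7-fold; adjusted p = 1.47e-05), and by 2.79, 2.73 and 4.33 within the dates. IFN-γ replicate 3 was the highest library, and without both libraries that stood apart the rise was 2.86 (adjusted p = 4.41e-06). Irf7 was also higher at 400 µM than with IL-4 (1.22 ± 0.40; adjusted p = 0.0256). At 200 µM the same difference was 0.99 ± 0.40 (adjusted p = 0.0767), and with the replicate number as a block, 1.06 (adjusted p = 0.0408). Of 5 markers of plasmacytoid dendritic cells, which hold much Irf7, 3 were at 0 in control, heme-albumin and IL-4 libraries and 2 in IFN-γ libraries. Their sum was 63.5 to 73.5 CPM in controls and 48.7 to 58.1 CPM with IFN-γ, nearly all of it Tcf4. It was 32.8 to 44.5 CPM at 200 µM, 37.7 to 39.7 CPM at 400 µM and 55.7 to 60.9 CPM with IL-4, also below the controls. The part of such cells in the Irf7 results was not tested.

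Irf3 (ENSMUSG00000003184, chr7:44997648-45002848) encodes the factor that is kept inactive in the cytoplasm until sensors of viral nucleic acid trigger its phosphorylation. Its level was 28.4, 37.8 and 35.5 CPM in controls, 35.6, 38.0 and 33.1 CPM at 200 µM and 28.8, 24.8 and 27.1 CPM at 400 µM. IL-4 gave 37.4, 42.1 and 37.4 CPM and IFN-γ 27.7, 42.5 and 34.4 CPM. All 4 treated groups overlapped with the controls. The changes with IL-4 and IFN-γ were 0.20 ± 0.15 and 0.04 ± 0.15 (adjusted p = 0.345 and 0.832). Those with heme-albumin were 0.07 ± 0.15 at the lower dose (adjusted p = 0.765) and -0.33 ± 0.15 at the higher (adjusted p = 0.123). No neighbours in the order of its levels differed, and Irf3 was the 1 tested member that passed in no comparison with control. It was lower at 400 µM than with IL-4 (-0.53 ± 0.15; adjusted p = 0.0115).

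Irf5 (ENSMUSG00000029771, chr6:29526625-29541871) encodes a factor downstream of Toll-like receptors and MyD88 that drives inflammatory cytokine genes. Its level was 134, 168 and 139 CPM in controls and 238, 334 and 456 CPM with IFN-γ. Heme-albumin gave 206, 239 and 199.6 CPM at 200 µM and 195, 151 and 178 CPM at 400 µM, and IL-4 gave 173, 179 and 175 CPM. IFN-γ, 200 µM and IL-4 lay above every control, and 400 µM overlapped with them. The highest library at 200 µM lay just above the lowest with IFN-γ.

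With IFN-γ, Irf5 rose by 1.22 ± 0.19 (2.33-fold; adjusted p = 1.96e-04), by 0.83, 0.98 and 1.71 within the dates, and by 0.96 without both libraries that stood apart. At 200 µM it rose by 0.55 ± 0.19 (1.46-fold; adjusted p = 0.0486). That call was lost in 10 of 16 alternatives, among them the replicate block (adjusted p = 0.0504) and leaving out any 1 of the 6 libraries compared (adjusted p up to 0.172). At 400 µM the change was 0.25 ± 0.19 (adjusted p = 0.350) and with IL-4 0.26 ± 0.19 (adjusted p = 0.338). Below IFN-γ, no neighbours in the order 200 µM, IL-4, 400 µM and control were told apart. Irf5 shares 411 bases of exon with Tnpo3 on the opposite strand, and without the strand setting of the counting these reads are uncertain. The same holds for shorter overlaps of Irf1 with Gm17334 (135 bases), Irf3 with Bcl2l12 (88 bases) and Irf7 with Phrf1 (45 bases).

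Irf4 (ENSMUSG00000021356, chr13:30749226-30766976) encodes a factor that cooperates with PU.1 and with BATF and JUN proteins and is induced by IL-4 in macrophages. IL-4 libraries held 72.4, 52.0 and 55.2 CPM. Controls held 2.49, 2.66 and 3.55 CPM, libraries at 200 µM 2.58, 0.676 and 1.80 CPM, those at 400 µM 1.10, 2.40 and 1.49 CPM, and those with IFN-γ 1.23, 1.47 and 0.344 CPM. IL-4 was far above all others, and IFN-γ and 400 µM lay below every control at levels that rest on few counts, with 116 in the control group, 61 at 200 µM, 49 at 400 µM and 59 with IFN-γ.

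With IL-4, Irf4 rose by 4.39 ± 0.38 (20.9-fold; adjusted p = 2.74e-06), and by 4.39, 3.85 and 3.63 within the dates on log2(CPM + 1). With IFN-γ it fell by 1.42 ± 0.44 (2.68-fold lower; adjusted p = 0.0183), lower on all 3 dates. Without both libraries that stood apart the value was -1.05 (adjusted p = 0.0328), and without control replicate 3 it was -1.29 and no longer called (adjusted p = 0.0560), nor was it with only the 6 libraries compared (adjusted p = 0.0540) or these with the block (0.0845). The changes with heme-albumin were -0.74 ± 0.43 at 200 µM and -0.80 ± 0.45 at 400 µM (adjusted p = 0.242 and 0.214). Apart from IL-4 and control, no neighbours in the order IL-4, control, 200 µM, 400 µM and IFN-γ differed.

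Irf8 (ENSMUSG00000041515, chr8:120736358-120756694) encodes a factor that acts with PU.1 in the myeloid lineage and with IRF1 at genes induced by IFN-γ. Controls held 113, 132 and 123 CPM, and IFN-γ libraries 521, 753 and 725 CPM. Heme-albumin gave 148, 169 and 168 CPM at 200 µM and 111, 112 and 128 CPM at 400 µM, and IL-4 gave 75.4, 87.5 and 85.9 CPM. IFN-γ and 200 µM lay above every control, IL-4 below, and 400 µM overlapped with them.

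With IFN-γ, Irf8 rose by 2.44 ± 0.14 (5.43-fold; adjusted p = 2.14e-08), by 2.19, 2.50 and 2.55 within the dates, and by 2.37 without both libraries that stood apart. With IL-4 it fell by 0.57 ± 0.13 (1.48-fold lower; adjusted p = 0.00597), with differences of -0.58, -0.59 and -0.51 within the dates. At 200 µM of heme-albumin it rose by 0.40 ± 0.13 (1.32-fold; adjusted p = 0.0431), a call lost in 9 of 16 alternatives, in which the adjusted p reached 0.251. At 400 µM the change was -0.07 ± 0.13 (adjusted p = 0.747). The order was IFN-γ, 200 µM, control, 400 µM and IL-4, and of its neighbours only control and 400 µM did not differ.

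**Figure D4:**
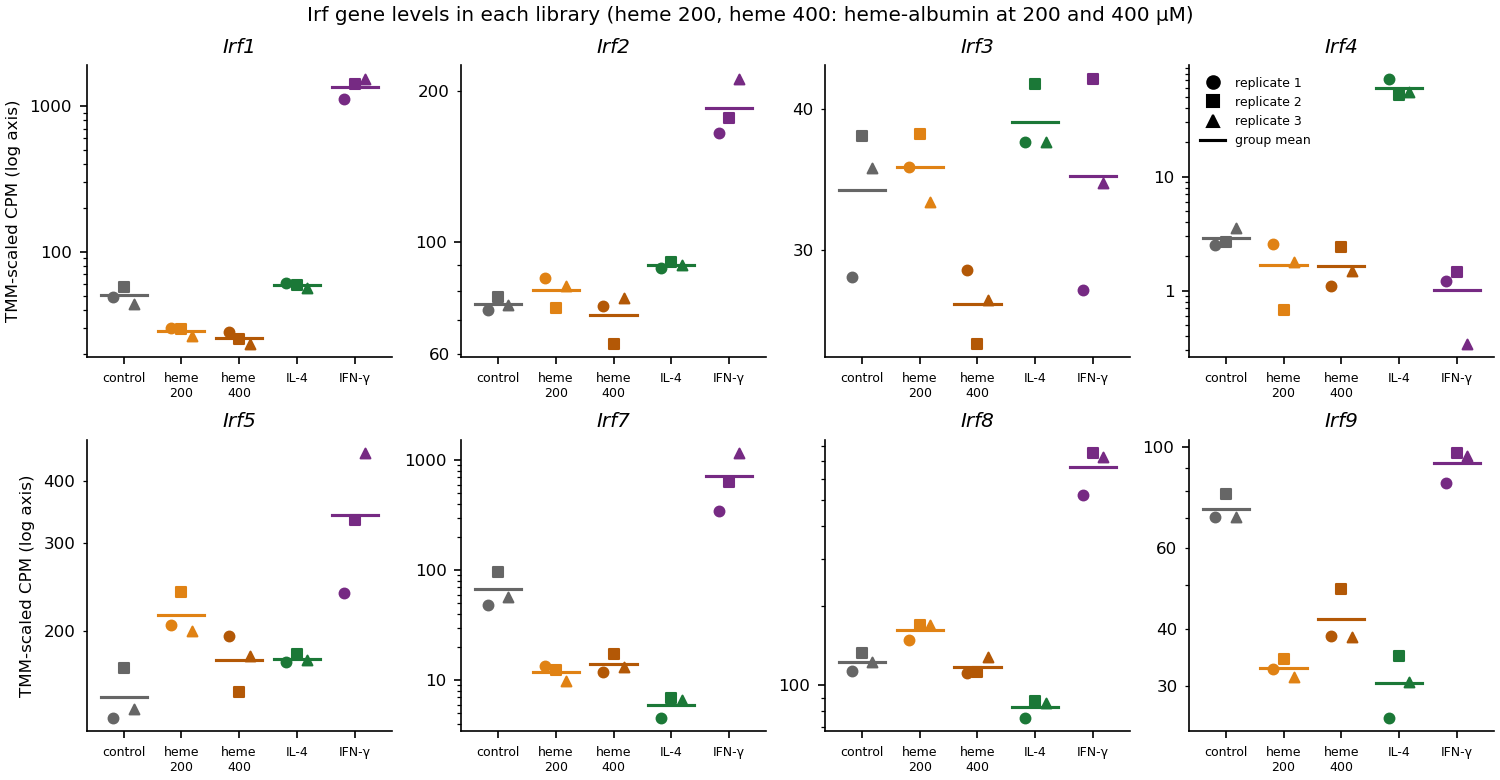
Points give the level of each tested Irf gene in every library (y axes, TMM-scaled CPM on log axes with their own ranges) by group (x axes), with the replicate as the symbol and the group mean as a line. IFN-γ libraries sit highest for Irf1, Irf2, Irf7, Irf8 and Irf9 and IL-4 libraries for Irf4 (52.0 to 72.4 CPM). For Irf5 the IFN-γ mean is highest but the lowest IFN-γ library (238 CPM) meets the highest at 200 µM (239 CPM), while Irf3 overlaps between the control and treated groups.

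The counts of Irf4 were 0.0220, 0.0202 and 0.0288 of those of Irf8 in control libraries and 0.959, 0.594 and 0.643 of them with IL-4. The log2 ratio differed from control by 4.93 with IL-4 and by -4.17 with IFN-γ, each without overlap and with the smallest p that 3 against 3 libraries allow (exact permutation test, two-sided p = 0.1). With heme-albumin the difference was -1.37 at 200 µM (exact p = 0.1) and -0.79 at 400 µM (exact p = 0.2).

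Dendritic cells and cells of the B lineage also hold Irf4 and Irf8, so their markers were read beside these members. The 7 markers of conventional dendritic cells summed to 0.484 to 1.61 CPM in controls, up to 5.88 CPM with IL-4 and 27.3 to 60.5 CPM with IFN-γ. In the IFN-γ group Clec9a had a mean of 39.0 CPM and Xcr1 of 6.96 CPM, while Flt3 was at 0.0977 CPM, Zbtb46 at 0.363 CPM and Ccr7 at 0.0195 CPM. In the IL-4 group Cd209a had a mean of 2.68 CPM and Zbtb46 of 1.77 CPM, and Xcr1 was at 0. The 7 markers of B and plasma cells summed to 13.2 to 18.2 CPM in controls and 31.2 to 39.7 CPM with IL-4, nearly all of it Sdc1 (35.3 CPM), with Pax5 and Jchain at 0. With IFN-γ they ran from 5.43 to 49.5 CPM, and with heme-albumin from 21.3 to 37.2 CPM at 200 µM and 27.5 to 31.4 CPM at 400 µM. The part of such cells in the Irf4 and Irf8 results was not tested.

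Set against each other, the polarizing treatments differed in more members than the doses of heme-albumin did. Between IFN-γ and IL-4, 7 of the 8 tested members differed, 6 higher with IFN-γ and 1 lower, where 50.6% of all genes were called (26.3% higher and 24.3% lower). The changes of Irf7 (6.89 ± 0.46), Irf4 (-5.81 ± 0.41), Irf1 (4.53 ± 0.15) and Irf8 (3.01 ± 0.14) were the 4 largest there. Heme-albumin at 400 µM differed from IL-4 in 7 members (40.2% of all genes called, 20.5% higher and 19.7% lower): Irf7, Irf8 and Irf9 were higher, and Irf1, Irf2, Irf3 and Irf4 lower. At 200 µM it differed from IL-4 in 3 members (31.4% of all genes called, 16.8% higher and 14.5% lower), with Irf8 higher by 0.96 ± 0.13 and Irf1 and Irf4 lower. Against IFN-γ, 6 members were lower at 400 µM (42.9% of all genes called, 20.6% higher and 22.3% lower) and the same number at 200 µM (42.1% called, 20.4% higher and 21.7% lower), namely Irf1, Irf2, Irf5, Irf7, Irf8 and Irf9. With the replicate block Irf3 was called at 400 µM against IFN-γ too (-0.35; adjusted p = 0.0492; without the block 0.0572). With the block and only the 6 libraries compared, Irf5 was not called against IFN-γ at 400 µM (-0.93; adjusted p = 0.0579) or at 200 µM (-0.64; adjusted p = 0.0957), and at 200 µM it was not called with the 6 libraries alone (adjusted p = 0.0669). At 400 µM against IL-4, Irf2 was not called without heme-albumin 400 µM replicate 2 (adjusted p = 0.0956), IL-4 replicate 2 (0.0636) or IL-4 replicate 3 (0.0625), nor with the block and 6 libraries (0.0718). Irf7 was not called there without heme-albumin 400 µM replicate 2 (adjusted p = 0.0947) or IL-4 replicate 1 (0.0856).

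Between the doses of heme-albumin, edgeR called 0 of the 8 members and 0% of all genes. At an unadjusted p under 0.05 there were 3 members, beside 1796 of the 11883 genes tested. DESeq2 called 0 of the members and 13 of all genes. The members were Irf8 (-0.47 ± 0.13 at 400 µM against 200 µM; adjusted p = 0.292), Irf3 (-0.40 ± 0.15; 0.297) and Irf9 (0.35 ± 0.13; 0.297). In each the dose groups did not overlap, and they did not for Irf5 either (-0.30 ± 0.19; adjusted p = 0.439). How many of all genes lacked such overlap was not counted, so nothing about the members is read from it. With the block and only the 6 libraries compared, Irf8 was called (-0.46; adjusted p = 0.0407).

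Genes around the family were read from lists of receptors, kinases, partners and targets, whose counts stand beside the 23.4%, 25.4%, 26.8% and 43.7% of all genes called at 200 µM, at 400 µM, with IL-4 and with IFN-γ. Among 8 interferon receptor chains, JAKs and a STAT, 5 rose and 1 fell with IFN-γ, and the list median was 0.51 against 0.05 over all tested genes. Jak2 rose by 1.75 ± 0.17, Stat2 by 1.57 ± 0.13, Tyk2 by 1.19 ± 0.14 and Ifnar2 by 0.56 ± 0.13, and Ifnar1 fell by 0.49. Stat2, whose product is a partner of IRF9, fell in the groups in which Irf9 fell. It changed by -1.85 ± 0.13 at 200 µM, by -1.51 ± 0.13 at 400 µM and by -1.25 ± 0.13 under IL-4. The list counts were 0 rises and 1 fall at 200 µM, 0 and 2 at 400 µM, where Ifngr1 also fell (-0.89 ± 0.17), and 1 and 2 with IL-4, where Jak2 rose (1.10 ± 0.17) and Ifnar1 fell (-0.44 ± 0.15). Leaving out any 1 of the 6 libraries compared left 1 fall with IL-4, and the 5 rises with IFN-γ were 3 in a fit of just the 6 libraries compared. The list medians at 200 µM, 400 µM and IL-4 were -0.05, -0.13 and -0.06. Over all tested genes the medians were 0.02, 0.01 and 0.00 in the same order.

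Of 5 genes for the IL-4 receptor chains, JAK3 and STAT6, 3 fell with IL-4, with a list median of -0.65. These were Il13ra1 (-2.15 ± 0.19), Il2rg (-0.69 ± 0.13) and Il4ra (-0.65 ± 0.15). With IFN-γ the list median was 1.70, and 4 rose, namely Il13ra1 (1.86 ± 0.18), Il2rg (1.79 ± 0.14), Il4ra (1.70 ± 0.16) and Jak3 (1.15 ± 0.21). At 400 µM of heme-albumin 1 fell (Stat6 by 0.32 ± 0.11; median 0.05), and at 200 µM the median was 0.00 with adjusted p over 0.05 for all 5.

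Of 19 sensors, adaptors and kinases that activate IRF3, IRF5 and IRF7, 12 rose with IFN-γ, led by Tlr9, the receptor for unmethylated DNA (3.84 ± 0.26), with Ifih1 at 1.54 ± 0.14 and Tlr3 at 1.21 ± 0.14 (median 0.40). The genes of the cytoplasmic RNA sensors fell in the other treatments. At 200 µM, 400 µM and with IL-4, Ddx58 (RIG-I) changed by -1.58 ± 0.17, -1.11 ± 0.17 and -1.84 ± 0.17, and Ifih1 (MDA5) by -1.02 ± 0.14, -0.67 ± 0.14 and -1.07 ± 0.14. Tlr9 fell by 2.22 ± 0.29 with IL-4. In all, 5 of the 19 fell and 0 rose at each heme-albumin dose, and 7 fell and 1 rose with IL-4 (Tlr4, by 0.64). The number called at each heme-albumin dose is near the share of all genes called there (23.4% and 25.4%), and all genes called lower were 9.48% and 10.8%. The medians were -0.04, -0.25 and -0.22. At 400 µM, 8 fell and 1 rose without both libraries that stood apart.

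Of 11 corepressors and feedback inhibitors, 8 rose with IFN-γ (median 0.93), 4 rose and 2 fell with IL-4 (median 0.41), 1 rose and 2 fell at 200 µM (median -0.03), and 2 fell at 400 µM (median -0.19). With heme-albumin these counts are near or under the share of all genes called (23.4% at 200 µM and 25.4% at 400 µM). Socs1, which blocks JAK signalling, rose by 6.36 ± 0.47 with IFN-γ and by 5.56 ± 0.46 with IL-4. Usp18, which dampens the type I interferon receptor, changed by -3.41 ± 0.37 at 200 µM and -2.19 ± 0.34 at 400 µM, and Trim21, a ubiquitin ligase that acts on interferon factors, by -1.07 ± 0.14 and -1.02 ± 0.14.

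Of 12 genes for DNA-binding factors listed with IRF4 and IRF8, 11 were tested. The list is broad, and whether each product binds DNA together with IRF4 or IRF8 was not measured. With IL-4, 5 rose and 2 fell (median 0.74), led by Batf3 (4.06 ± 0.28) and Jund (2.06 ± 0.33), whose products pair with IRF4 on composite elements. With IFN-γ, 7 rose (median 0.87), led by Batf2 (6.10 ± 0.25), whose product is known to act with IRF1 in macrophages. With heme-albumin, 4 rose at 200 µM and 3 at 400 µM, among them Cebpa (2.04 ± 0.29 and 1.72 ± 0.29), Cebpb (1.44 ± 0.32 and 0.96 ± 0.32) and Batf3 (1.34 ± 0.30 and 0.97 ± 0.31), with medians of 0.55 and 0.23. The 3 of 11 called at 400 µM are near the 25.4% of all genes called.

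Most targets of ISGF3 rose with IFN-γ and fell in the other treatments. Of 23, 22 rose with IFN-γ (median 2.06), all but Oas2 (0.12; adjusted p = 0.749). At 200 µM of heme-albumin and with IL-4 all 23 fell (medians -2.38 and -2.98), and at 400 µM 21 fell (median -2.01), with Oasl1 at -0.67 (adjusted p = 0.145) and Oas3 at -0.74 (adjusted p = 0.101) outside the threshold. Cmpk2 changed by -3.16 ± 0.27 at 200 µM and by -3.08 ± 0.28 at 400 µM. Dhx58 changed by -1.52 ± 0.11 at 200 µM, by -1.51 ± 0.11 at 400 µM, and under IL-4 by -2.14 ± 0.11. Rsad2, an antiviral enzyme gene, fell by 4.10 ± 0.29 there. With IFN-γ, Ifi44 rose by 5.35 ± 0.27 and Ifit2 by 4.14 ± 0.30. The genes for interferons themselves were hardly seen: the 6 listed genes, Ifnb1, Ifna1, Ifna2, Ifna4, Ifna5 and Ifng, had at most 1 count per group, and a count of 0 allows up to 3 counts per group.

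Of 25 targets of IRF1 and IRF8, 23 were tested and all 23 rose with IFN-γ (median 3.20), led by p-value by Gbp3 (6.29 ± 0.24), Gbp2 (7.64 ± 0.30), Gbp5 (7.68 ± 0.31) and Ciita, the master regulator of MHC class II genes (8.19 ± 0.34). Among the 23, Nos2 and Cxcl9 had control means of 0.260 and 0.489 CPM, against 257 and 236 CPM with IFN-γ. They passed the filter on low counts through the IFN-γ group, which fixed their rise in advance. Nos2, Cxcl9 and Gbp2 were also the genes of the IFN-γ label check. At each heme-albumin dose 11 fell and 2 rose (medians -0.74 at 200 µM and -0.67 at 400 µM). Those that rose were Il18 (0.86 and 0.58) and Casp1 (0.43 and 0.55), and among those that fell were Ifi47 (-1.31 ± 0.15 and -1.23 ± 0.15), Gbp3 at 200 µM (-1.96 ± 0.25) and Cxcl10 at 400 µM (-3.09 ± 0.43). With IL-4, 15 fell and 2 rose (median -0.97), and those that rose were Ciita (4.53 ± 0.33) and Psmb10 (1.24). Il18 fell by 1.56 ± 0.15 with IL-4. Among listed genes, Casp1, Psmb10, Tlr4, Oas2, Oas3, Oasl1, Il18 at 400 µM, Ifnar1 with IFN-γ and Mrc1 with IL-4 were named after their values were seen.

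Of 6 genes linked to IRF4 and alternative activation, 5 were tested. With IL-4, 4 rose, namely Arg1 (11.37 ± 0.61), Chil3 (11.28 ± 1.13), Pdcd1lg2 (6.91 ± 0.59) and Retnla, which had 1 count over the controls and 140347 over the IL-4 libraries. Arg1, Chil3 and Retnla were also the genes of the IL-4 label check, so their rise repeats that check. Retnla passed the filter on low counts through the IL-4 group, which fixed its rise in advance. The level of Mrc1 with IL-4 changed by 0.58 (adjusted p = 0.499). Mrc1 fell in the other treatments, with changes of -2.44 ± 0.60 and -3.22 ± 0.62 at the lower and higher heme-albumin dose, and -3.86 ± 0.64 under IFN-γ. Arg1 rose by 6.01 ± 0.52 with IFN-γ, where Irf4 fell, and Pdcd1lg2 by 2.82 ± 0.71. At 400 µM Arg1 also passed as lower, with 1 count over the group against 56 in controls.

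**Figure D5:**
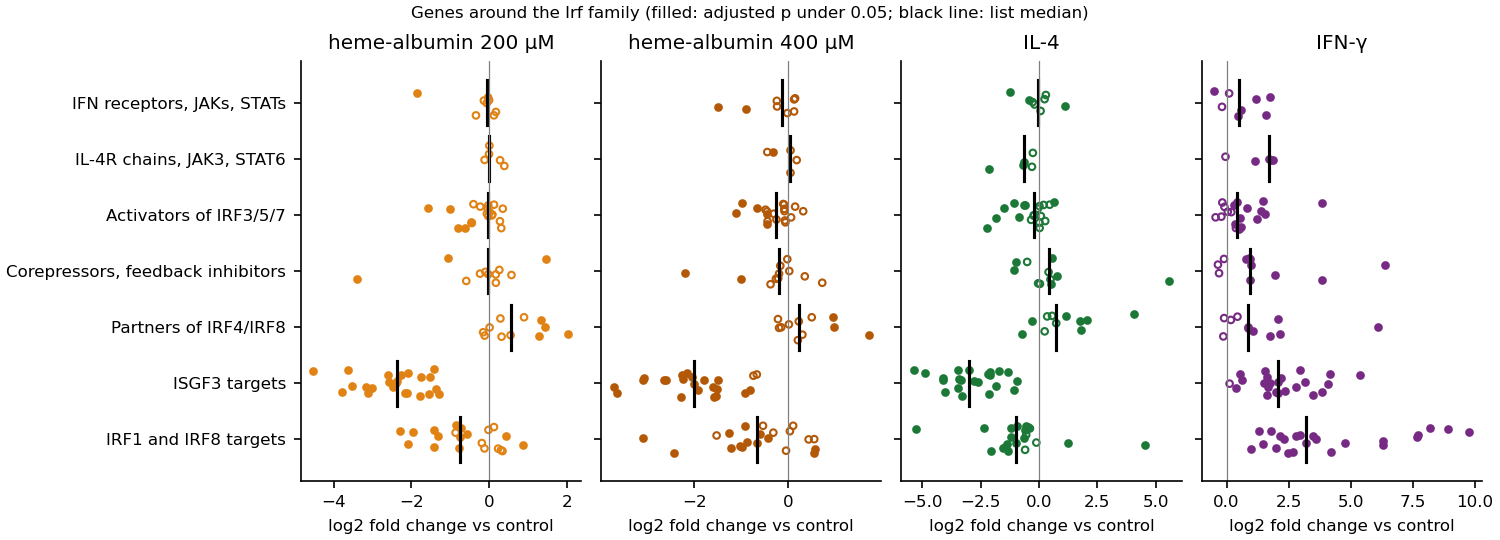
Each point is the log2 fold change of 1 listed gene against control (x axes, with their own ranges) in 7 lists of genes around the family (y axis), filled where the adjusted p is under 0.05; black lines give list medians, and genes with 3 or fewer counts in a group are not drawn. ISGF3 targets lie below 0 with both heme-albumin doses and IL-4 (medians -2.38, -2.01 and -2.98) and above 0 with IFN-γ (median 2.06).

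For each tested member, the 3 named genes most like it were taken by Pearson's r of log2(CPM + 1) over the 15 libraries, as a description in which the points share groups and treatments. Irf7 was most like Ifit1 (0.993), Ifit2 (0.991) and Isg15 (0.990), and Irf9 most like Rtp4 (0.993), Oasl2 (0.989) and Ddx58 (0.986). All 6 are in the lists above. Irf1 was most like Wars (0.994), Pla2g16 (0.991) and C4b (0.991), Irf2 most like Nod1 (0.993), Themis2 (0.987) and Tapbpl (0.980), and Irf8 most like Trafd1 (0.991), Il27 (0.988) and Abi3 (0.977). The genes like Irf1, Irf2 and Irf8 were highest with IFN-γ: Wars had a mean of 301 CPM with IFN-γ and 63.3 CPM in controls, Nod1 of 136 and 13.3 CPM, and Trafd1 of 607 and 100.2 CPM. Irf4 was most like Pdlim1 (0.984), Hebp2 (0.981) and Mrps25 (0.976), which were highest with IL-4, as in Pdlim1 at 67.8 CPM against 1.56 CPM in controls. Irf5 was most like Zfp276 (0.988), Tmbim6 (0.983) and Dok1 (0.982). Irf3 had the lowest likeness, to Hsf1 (0.915), Fam173a (0.914) and Arhgap45 (0.907).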

How the data were processed

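Gene counts of 15 libraries were used as deposited, as raw counts in 1 table. The submitters' processing notes name STAR 2.7.0e, SAMtools 1.9, featureCounts and the build GRCm38.p5, and the labels' protocols a stranded TruSeq kit. Which annotation was counted, and with which strand setting, is not given in the sources used here. Of 25700 identifiers, 25587 matched a symbol in GENCODE M21 (GRCm38), which also gave positions and exon lengths, and 113 did not.

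Counts were filtered with filterByExpr (11883 genes kept), scaled by TMM and tested in edgeR 4.0.16 (R 4.3.3) by the quasi-likelihood test, with a mean per group and all 15 libraries in 1 fit, in 10 comparisons. Ratios used the counts with nothing added, and adding 0.5 to each count was an alternative. Likeness and within-date differences used a pseudocount of 1 CPM. Named genes were the 8 Irf genes, the 3 most like each, and up to 4 called members of smallest p per list and comparison, with others as needed to account for a list. The members, lists and tests were chosen with earlier results of these data known. A few items are not reported here and were left out of the members, lists and sums. On simulated counts over 11763 genes for heme-albumin 400 µM against control, the test recovered 10 of 50 genes changed 1.5-fold, 38 changed 2-fold, 45 changed 4-fold and 47 changed 8-fold, and 6 of 146 calls were false. The data had 3023 of 11883 genes called in that comparison, far more than the simulation, so recovery in the data may differ.

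The column names carry 3 dates, 1 per replicate number, and so pair the samples. The meaning of these dates is not given in the sources used here. Over 30 pairs of libraries with the same number, deviations from group means correlated with a median of 0.193 (range -0.206 to 0.512; 21 over 0.1), against -0.0992 over 60 other pairs. Alternatives were DESeq2 1.42.0, DESeq2 and upper-quartile factors, no filter or a minimum of 5 CPM in 3 libraries, fits on just the 6 libraries of a comparison, a replicate block, and each library left out in turn. Added after seeing the data were library totals in place of TMM, the data without both libraries that stood apart, and the block within the 6 libraries of a comparison. Figures were drawn with matplotlib 3.10.9.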

Additional observations from a re-analysis of the deposited data

How the results depend on the processing

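The falls of Irf1, Irf7 and Irf9 with heme-albumin, the rise of Irf4 and falls of Irf7, Irf8 and Irf9 with IL-4, and the rises of Irf1, Irf2, Irf5, Irf7 and Irf8 with IFN-γ kept their call and direction in all 16 alternatives, and the cause of the changes below was not tested. The number of members called at 200 µM against control was 3 under DESeq2 size factors, library totals or no filter, and 3 to 4 when 1 library was left out. It was 8 for IL-4 against control with the replicate block and only the 6 libraries compared, 1 between the doses under that setting, and 5 for 200 µM against IL-4 with only the 6 libraries compared, with or without the block; at the full 15 libraries the block moved no such count by over 1.5 times. Leaving out 1 library gave 3 to 3 at 400 µM and 4 to 4 with IL-4 against control, 5 to 7 with IFN-γ, 0 to 0 between the doses, 7 to 7 for IFN-γ against IL-4, 5 to 7 for 400 µM and 3 to 3 for 200 µM against IL-4, and 6 to 7 and 6 to 6 against IFN-γ.

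Signs turned only for uncalled changes. Irf2 at 400 µM was 0.0224 without both libraries that stood apart and -0.13 to 0.0127 with 1 library left out, and at 200 µM -0.12 with library totals. Irf3 at 200 µM was -0.14 with library totals and -0.0620 to 0.132 with 1 left out. With IFN-γ Irf3 was -0.0642 with upper-quartile factors, -0.14 with library totals, -0.00613 with the block and 6 libraries, and -0.13 to 0.186 with 1 left out. Between the doses Irf4 was -0.445 to 0.45 with 1 left out. At 400 µM against IL-4 Irf5 was 6.65e-04 and 0.0257 under DESeq2 and upper-quartile factors, 0.00957 under the stricter filter, 0.00810 and 0.00111 with 6 libraries without and with the block, 0.11 without both libraries, and -0.0959 to 0.0874 with 1 left out. Irf4 at 400 µM against IFN-γ was -0.0313 without both, and Irf3 at 200 µM against IFN-γ -0.12 to 0.197 with 1 left out. The log2 ratio of Irf1 to Irf2 with IL-4 was -0.10 to 0.0549 with 1 left out, which turned its sign without IL-4 replicate 3 or control replicate 2. At 200 µM, 400 µM and with IFN-γ its ranges were -0.97 to -0.82, -0.97 to -0.77 and 3.39 to 3.54. Those of Irf4 to Irf8 were -1.84 to -0.78, -1.13 to -0.56, 4.72 to 5.09 (IL-4) and -4.60 to -3.45 (IFN-γ).

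Library totals in place of TMM shifted the median of all genes against control to -0.19 at 400 µM, -0.18 at 200 µM, -0.11 with IL-4 and -0.13 with IFN-γ, from 0.01, 0.02, 0.00 and 0.05. Higher and lower calls over all genes went from 1744 and 1279 to 1173 and 2627 at 400 µM, from 1658 and 1127 to 992 and 2575 at 200 µM, from 1766 and 1424 to 1224 and 1939 with IL-4, and from 2866 and 2323 to 1892 and 3359 with IFN-γ. Irf4 outside IL-4 rests on 5 to 44 counts per library. Changes of 1.5-fold were mostly missed on simulated counts, in which far fewer genes were changed than were called in the data.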
